A study of Mus musculus with 21 samples.

Results

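Prdm1, Irf4, Xbp1, Bhlha15 and Creb3l2 are 5 transcription factor genes tied to the making of plasma cells (PC), the antibody-secreting cells of the B lineage. They were chosen by name as 5 of the 14493 genes in a single-cell RNA count matrix, and all 5 were present in it. The matrix held 6619 cells of mouse draining lymph nodes, profiled with the 10x Genomics 5′ v2 chemistry, which counts unique molecular identifiers (UMIs), 1 for each captured transcript. All 6 mice received 100 µg of the hapten-protein antigen NP-KLH in adjuvant under the skin and a single gavage of 5 mg tamoxifen at least 6 days later, which switches on a Cre-ERT2 recombinase and labels cells with eYFP. The cells kept were alive, negative for IgD and positive for eYFP, and 2 mice were taken at each of days 10, 16 and 22 of the primary response. The labels do not name the strain, the age of the mice or the promoter that drives the Cre, and every mouse was immunized and given tamoxifen, so no untreated control enters. Sorted PC and sorted non-PC cells of all mice, each mouse marked by its own hashtag antibody, were pooled within a fraction and loaded into separate wells.

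In textbook accounts, the exit from the B cell programme is driven by Blimp-1, the repressor encoded by Prdm1, together with Irf4, a factor whose high dose favours PC fate and whose lower dose serves germinal centre entry. Xbp1 then builds the secretory machinery once its mRNA has been spliced by the endoplasmic reticulum sensor IRE1 (gene Ern1). Bhlha15, also called Mist1, is a factor of professional secretory cells, and Creb3l2 is a membrane-bound factor released by cleavage that supports the coats of secretory vesicles.

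The authors named 6 states of the cells, and the number of cells differed widely between them. Germinal centres, where B cells mutate and are selected, were represented by 3194 light zone cells (LZ), 2382 dark zone cells (DZ) and 232 cells named LZtoDZ. The other states were 522 preMem cells, 47 prePC cells and 242 PC. The PC well supplied 234 of the PC and 10 of the prePC cells. The 8 markers of PC summed to between 18676 and 30424 CPM (UMIs of a gene scaled to a common library total) over the 6 mice in the PC state, against 2623 to 5606 in prePC cells and at most 3101 in any of the other states, so the markers bear out the name PC. T cell markers summed to at most 16.1 CPM in PC, where Cd3e, Cd3d and Cd4 were at 0, and to between 17.3 and 391 CPM in prePC cells (median 67.8). In LZ, DZ, LZtoDZ and preMem they summed to between 39.4 and 148 CPM, most of it from Lck, and myeloid markers reached 209 CPM in prePC cells and 119 CPM in LZ. The rule by which states were named is not given in the sources used here and may have used these 5 genes, so differences between states describe the named cells, while the sorted fractions were set without transcripts. PC carried 23.0% ± 4.11 (SD, n = 6 mice) of their UMIs in immunoglobulin genes, against means of 0.81% to 2.96% elsewhere, which lowers the CPM of every other gene in PC. The median depth was 15232 UMIs per cell in the PC well and 8289 in the non-PC well, with totals per mouse from 343838 to 2985833 and from 5917047 to 15613386. A total of 6 cell barcodes occurred in both wells, and 1 of them belonged to a PC in 1 of the wells.

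The 5 genes lie on different chromosomes of the GRCm38 genome. Prdm1 spans chr10:44437177-44528501 on the minus strand, Irf4 chr13:30749226-30766976 on the plus strand, and Xbp1 chr11:5520659-5525893 on the plus strand. Bhlha15 spans chr5:144190286-144194441 on the plus strand, and Creb3l2 chr6:37327255-37442146 on the minus strand. The stretch of Xbp1 mRNA that IRE1 removes is shown because gene counts cannot tell the spliced from the unspliced message, so every Xbp1 value here is the sum of both. It lies in exon 4 at chr11:5524282-5524307, bases 818 to 843 of the 2129 bases of the transcript Xbp1-201. In the line printed here the capitals mark the 26 bases that are removed, and their loss changes the open reading frame from 267 to 371 residues.
Xbp1 splice site: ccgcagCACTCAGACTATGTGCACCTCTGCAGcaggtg
The promoter windows of the 5 genes, 250 bases before the start site in RefSeq on GRCm38.p6, were searched on both strands for 6 short motifs because the genes were high in the same cells. For Prdm1 the RefSeq start lies inside the span given here. The motif TGACGT, the core bound by factors of the CREB and ATF family, occurred in 1 of the 5 windows, that of Creb3l2, and in 6.47% of 32851 promoters of the same length. The match is printed in capitals within chr6:37442299-37442384, minus strand, from 236 to 151 bases before the start.
Creb3l2 promoter: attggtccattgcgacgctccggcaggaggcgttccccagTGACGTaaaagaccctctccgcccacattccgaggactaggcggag
No match in the 5 windows was found for the core of the interferon-stimulated response element, the composite element of Ets and IRF factors, AGNGAAAG (the core of the Blimp-1 motif), ACGTG (a core of the unfolded protein response element) or the E-box CAGCTG. They occurred in 2.98%, 2.30%, 7.30%, 16.6% and 13.0% of all promoters. A match is a string of letters and was not tested as a binding site.

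All 5 genes had their highest mean level in PC, and the gap to LZ and DZ was widest for Bhlha15 and Creb3l2. Levels are given in CPM of the UMIs of a mouse and state, and they are compared within a gene, not between genes.
Prdm1 stood in PC at 26.5 and 34.9 CPM in the mice of day 10, 85.7 and 64.6 at day 16, and 33.0 and 66.4 at day 22. In LZ the lowest, median and highest mouse had 0.38, 1.04 and 2.20 CPM, in DZ 0.69, 0.76 and 0.92, and in preMem 0, 3.29 and 11.4. In LZtoDZ no Prdm1 UMI was found among 5695744, which allows up to 0.527 CPM, so the pooled PC level was at least 78.1-fold higher, taking the floor at 3 counts over the group. No germinal centre or preMem value reached the lowest PC value.
Irf4, in contrast, was graded within the germinal centre. Its PC levels were 168 and 146 CPM at day 10, 159 and 131 at day 16, and 131 and 86 at day 22. The lowest, median and highest mouse had 1.07, 2.00 and 3.88 CPM in DZ, 3.09, 5.00 and 5.97 in LZ, 4.80, 8.20 and 9.02 in preMem, and 6.25, 13.1 and 22.2 in LZtoDZ. The ranges of neighbouring states in this order overlapped up to LZtoDZ, and PC stood clear of all of them.
Xbp1 was present in every state. PC held 1344 and 1635 CPM at day 10, 1359 and 1328 at day 16, and 1510 and 1762 at day 22. The lowest, median and highest mouse had 51.4, 79.1 and 106 CPM in preMem, 92.4, 106 and 112 in LZ, 104, 111 and 138 in DZ, and 102, 115 and 121 in LZtoDZ. Those 4 states overlapped with one another and none came near PC.
The other pair, Bhlha15 and Creb3l2, was close to absent outside PC. Bhlha15 stood in PC at 41.3 and 25.3 CPM at day 10, 36.7 and 24.2 at day 16, and 37.6 and 27.4 at day 22. Over all LZ cells it had 2 UMIs, over LZtoDZ cells 2, and over DZ and preMem cells 0, which allows up to 0.115 CPM in DZ and 0.974 CPM in preMem. The PC mice held 82.5 and 67.2 CPM of Creb3l2 at day 10, 91.8 and 54.9 at day 16, and 74.0 and 74.2 at day 22. Over all cells Creb3l2 had 12 UMIs in LZ, 8 in DZ, 3 in LZtoDZ and 2 in preMem, against 336 in PC.

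**Figure D1:**
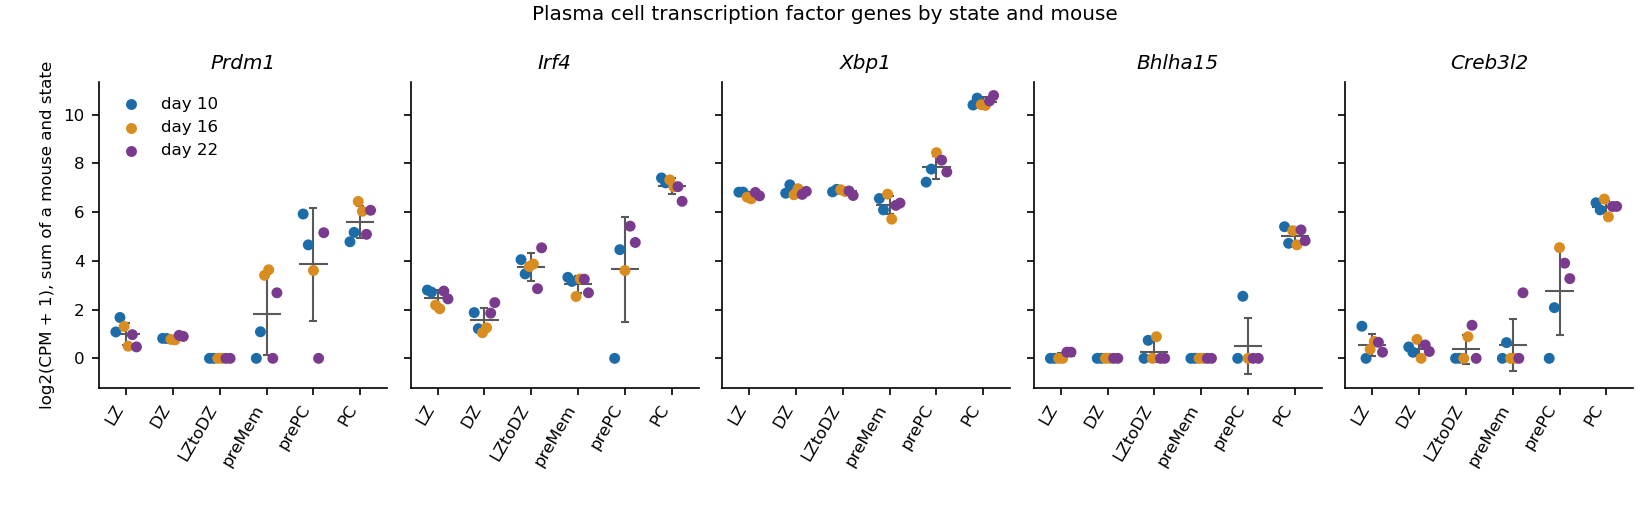
Level of each gene (log2 of CPM + 1, vertical axis) in the 6 states, 1 point per mouse coloured by day, with bars for the mean and SD over mice. PC points lie above all points of LZ, DZ, LZtoDZ and preMem for each gene, and prePC points spread widely, lying above those 4 states for Xbp1 and overlapping with some of them for each other gene.

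Pooled over cells, PC exceeded LZ 36.2-fold for Prdm1 (95% interval 24.8 to 54.3, counting error only), 29.4-fold for Irf4 and 14.8-fold for Xbp1. The same ratio was 162 for Creb3l2 (91.6 to 317) and 408 for Bhlha15 (111 to 3403), the latter resting on 2 UMIs in LZ. Against DZ, where Bhlha15 had 0 UMIs, PC were at least 253-fold higher. The test summed counts per mouse and state, with the mouse as a block (edgeR's quasi-likelihood test, TMM scaling, Benjamini-Hochberg adjustment over all genes tested, threshold 0.05). In PC against LZ, 48.4% of 8493 genes passed it, and so did all 5 of these, each higher in PC in 6 of 6 mice. The log2 differences were 5.93 ± 0.37 (SE) for Prdm1, 5.42 ± 0.16 for Irf4, 4.44 ± 0.14 for Xbp1, 8.64 ± 0.37 for Bhlha15 and 7.84 ± 0.34 for Creb3l2, with adjusted p from 6.72e-09 to 4.01e-07. For all but Bhlha15 they exceed the pooled CPM ratios, which rest on library totals. Library totals in place of TMM shift the median of all genes from -0.13 to -0.73 and the share of calls that are higher in PC from 44.7% to 16.4%. The 5 genes passed against DZ (49.2% of genes called) and LZtoDZ (55.5%), and against preMem (67.6%) the 3 that passed the count filter did so, Irf4 by 4.52 ± 0.18, Xbp1 by 4.63 ± 0.17 and Creb3l2 by 6.72 ± 0.38. With so many genes called in these contrasts, a call alone says little of the 5 genes.

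Within the germinal centre, Irf4 was lowest in DZ, higher in LZ and highest in LZtoDZ, while Xbp1 kept within a narrow range. In LZ against DZ (33.9% of genes called; 2 of the 5 genes tested, 1 called) Irf4 was higher by 1.12 ± 0.24 (adjusted p = 0.00211, edgeR), in 6 of 6 mice, with means of 4.73 ± 1.23 and 2.16 ± 1.09 CPM (SD). In LZtoDZ, where 158 of 232 cells were called S phase and the median depth was 22505 UMIs, Irf4 rose further, to 13.4 ± 5.38 CPM, a log2 difference of 1.46 ± 0.30 from LZ (56.4% of genes called, adjusted p = 0.000667) and of 2.59 ± 0.30 from DZ (57.7% called, adjusted p = 8.81e-07). Again 6 of 6 mice showed the direction, and the LZtoDZ mice did not overlap with those of either state. Xbp1 differed by 0.19 ± 0.07 between LZtoDZ and LZ (adjusted p = 0.0434), which library totals took to 0.14 and an adjusted p of 0.13. It differed by -0.15 ± 0.06 between LZ and DZ, with an adjusted p of 0.064, and by 0.04 ± 0.08 between LZtoDZ and DZ (adjusted p = 0.85). In preMem against LZ (31.8% called) Xbp1 differed by -0.37 ± 0.13 (adjusted p = 0.0363) and was lower in 5 of 6 mice, and Irf4 differed by 0.72 ± 0.35 (adjusted p = 0.13).

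In prePC cells, by their name the cells before PC, Irf4, Xbp1 and Creb3l2 stood far below their PC levels. Pooled over cells, Prdm1 was the closest of the 5 to its own PC level, but not in day 16 mouse 2 or day 22 mouse 1. Only 5 mice had prePC cells, with 3, 28, 5, 5 and 6 of them, and mouse 1 of day 16 had none. In the order day 10 mice 1 and 2, day 16 mouse 2, and day 22 mice 1 and 2, prePC cells held 59.6, 24.2, 11.2, 0 and 34.6 CPM of Prdm1, against 26.5, 34.9, 64.6, 33.0 and 66.4 in PC. The groups overlapped, since mouse 1 of day 10 was above its own PC and the rest were below.
For Irf4 the same mice had 0, 21.0, 11.2, 41.9 and 26 CPM, and Xbp1 stood at 149, 216, 346, 280 and 199 CPM. In both genes each prePC value lay under the lowest of the PC values. Creb3l2 was at 0, 3.23, 22.3, 14.0 and 8.66 CPM and Bhlha15 at 0, 4.84, 0, 0 and 0 CPM, again with no overlap with PC.

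**Figure D2:**
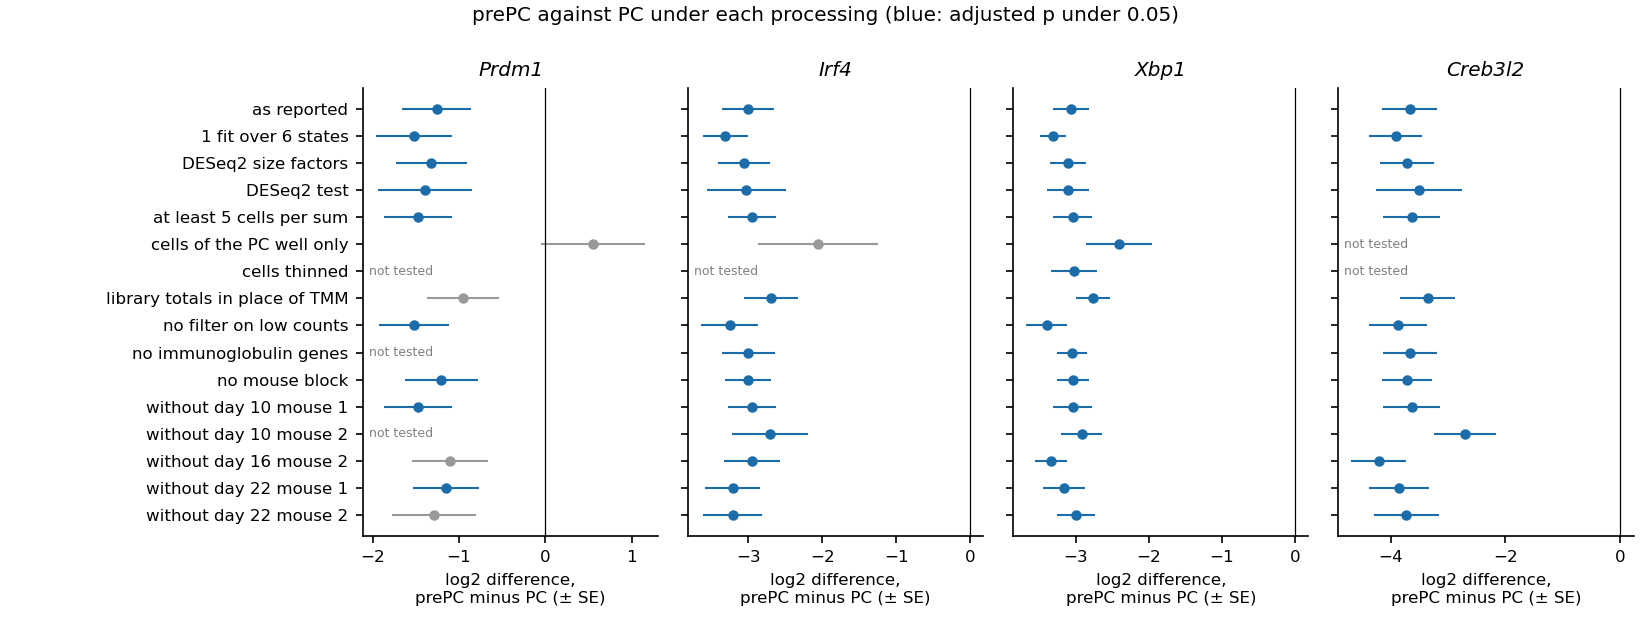
Log2 difference of prePC minus PC with its SE (horizontal axis) for the 4 genes tested, with 1 line for each processing or mouse left out (vertical axis), blue where the adjusted p was under 0.05 and grey where not. Xbp1 stays blue in every fit, and Prdm1 turns grey in 4 and crosses to 0.55 within the PC well.

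Of 2832 genes tested between prePC cells and PC, 31.5% were called, and of the 5 genes 4 passed the count filter and all of those were called lower in prePC. Creb3l2 fell by 3.67 ± 0.48 on the log2 scale (adjusted p = 0.000171, edgeR's quasi-likelihood test), Xbp1 by 3.06 ± 0.24 (1.35e-05) and Irf4 by 3.0 ± 0.35 (8.86e-05), each in 5 of 5 mice. Prdm1 fell by 1.26 ± 0.40 (adjusted p = 0.0348), in 4 of 5 mice. Its call was lost with library totals (-0.96, adjusted p = 0.088), without mouse 2 of day 16 (-1.10, 0.087) and without mouse 2 of day 22 (-1.29, 0.083). Bhlha15 could be tested when no filter on low counts was used, and then fell by 3.66 ± 0.65 (adjusted p = 6.27e-07, edgeR). Pooled ratios of PC over prePC, with counting error only, were 1.74 for Prdm1 (1.12 to 2.84), 6.51 for Irf4 (4.18 to 10.7), 6.77 for Xbp1 (5.90 to 7.79), 8.99 for Bhlha15 (3.01 to 44.1) and 10.7 for Creb3l2 (4.87 to 29.4). On counting error alone, the interval of Prdm1 lies below those of Irf4, Xbp1 and Creb3l2. These intervals leave out the spread between mice and the bunching of UMIs in few cells. The top 3 prePC cells held 63.6% of the Prdm1 UMIs. The order of the genes did not hold in day 16 mouse 2 or day 22 mouse 1.

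Pooled over cells, the UMIs of the 4 other genes for each Prdm1 UMI differed between the states, a description that was not tested. For each Prdm1 UMI, PC held 37.7 UMIs of Xbp1, 3.41 of Irf4, 1.68 of Creb3l2 and 0.71 of Bhlha15. In prePC cells those figures were 9.68, 0.91, 0.27 and 0.14, from 22 Prdm1 UMIs. Single mice varied, as prePC cells of day 22 mouse 1 held 0 Prdm1 and 3 Irf4 UMIs. Those of day 10 mouse 1 held 2 Prdm1 and 0 Irf4 UMIs. LZ cells had 12 Creb3l2 UMIs where the PC ratio to their 32 Prdm1 UMIs would give 53.8, and 2 Bhlha15 UMIs where it would give 22.6. They had 134 Irf4 UMIs where that ratio would give 109, and 2939 Xbp1 UMIs where it would give 1206.

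State and well were largely the same split, since the non-PC well supplied 37 of the 47 prePC cells. The 10 prePC cells of the PC well held 87.4 CPM of Prdm1, found in 5 of them, and the 37 of the non-PC well 14.7 CPM, found in 3. Irf4 stood at 35 and 19.6 CPM in the 2 sets, Xbp1 at 402 and 205, and Creb3l2 at 26.2 and 3.68, while the median depth was 7797 and 17219 UMIs. Within the PC well, 4 mice had both states, with 1, 4, 2 and 3 prePC cells. Their Prdm1 was 0, 109, 21.7 and 210 CPM in prePC cells, against 25, 33.9, 68.8 and 66.4 CPM in PC. On these cells the log2 difference of Prdm1 turned to 0.55 with an adjusted p of 0.72, Irf4 differed by -2.05 (0.079), and Xbp1 kept its call at -2.40. The lower Prdm1 of prePC cells was thus not seen within the PC well, where the prePC sums are 1 to 4 cells deep.

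The 47 prePC cells were unlike one another. Prdm1 was detected in 8 of them, and these held 425 CPM of Xbp1 and 64.4 CPM of Irf4, against 190 and 12.9 CPM in the 39 without a Prdm1 UMI. Jchain, which encodes the J chain of antibodies, stood at 3510 and 1899 CPM in the same sets. Pooled over cells, it was at 968 CPM in LZ, 1590 in DZ and 15872 in PC. The deposited cluster 4 held 28 of the prePC cells, with 10.4 CPM of Prdm1, 2.61 of Irf4 and 115 of Xbp1, and the 19 in other clusters had 33.0, 34.8 and 309 CPM. Creb3l2 went the other way, at 10.4 CPM in cluster 4 (4 UMIs) and 3.66 CPM (2 UMIs) in the others. A few cells carried much of the message, as the top 3 cells for each gene, taken gene by gene, held 63.6% of the Prdm1 UMIs, 70% of those of Irf4 and 83.3% of those of Creb3l2. A single S-phase cell of day 10 mouse 2, with 62128 UMIs, held 5 Prdm1, 8 Irf4, 25 Xbp1 and all 3 Bhlha15 UMIs. At the other end, 10 of the 47 cells had no UMI of any of the 5 genes, and 4 had at least 3 of them. Memory markers summed to between 329 and 1014 CPM in prePC cells and to between 908 and 1109 CPM in preMem cells. The part of those, and of the T cell and myeloid markers, in these values was not tested.

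Against the states other than PC, the Xbp1 level of prePC cells was higher in each comparison. The log2 difference was 1.16 ± 0.24 from LZ (8.94% of genes called, adjusted p = 4.99e-05, edgeR), 0.98 ± 0.24 from DZ (11.6%, 0.00061), 1.25 ± 0.22 from LZtoDZ (17.4%, 0.000412) and 1.66 ± 0.25 from preMem (25.9%, 0.000967). All 5 mice showed it in each, with no overlap of the groups. Overlap was not counted over all genes, so how unusual its lack is for Xbp1 is not known. Xbp1 was the 1 gene of the 5 that passed the filter on low counts there. Without that filter, which lets in genes seen in a handful of cells, all 5 were called against LZ, Prdm1 by 4.10, Irf4 by 2.04, Creb3l2 by 4.44 and Bhlha15 by 4.37, and all 5 against DZ. That fit against DZ called 1233 of 13835 genes. Against LZ 13900 genes were tested without the filter, and no fit of that comparison called more than 1304. The Bhlha15 calls rest on 3 UMIs in 1 prePC cell. Against LZ, Bhlha15 was higher in prePC cells in 1 of the 5 mice and lower in 2. Against LZtoDZ, 3 were called without the filter (1223 of 12478 genes called) and Irf4 was not (0.78, adjusted p = 0.42). Pooled over cells, prePC exceeded LZ 20.8-fold for Prdm1 (11.5 to 36.9), 15.1-fold for Creb3l2 (4.66 to 43.6, from 6 UMIs), 4.52-fold for Irf4 (2.67 to 7.26) and 2.19-fold for Xbp1. With each cell thinned to 4727 UMIs, the Xbp1 difference from LZ was 1.05 with an adjusted p of 0.089.

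Other genes of the same circuits, from lists of known regulators and targets, were read in the same fits. Of all genes tested, 31.5% were called between prePC cells and PC and 8.94% between prePC cells and LZ. Between prePC cells and PC, 12 of the 14 listed targets of Xbp1 were tested and all 12 were lower in prePC, with a median of -2.32 against 0.04 over all genes. Examples are Pdia4 (-3.10 ± 0.24), an enzyme of disulphide bonds, Edem1 (-2.98 ± 0.27), which sends misfolded proteins to degradation, Dnajc3 (-2.64 ± 0.27), a co-chaperone, and Sec61b (-1.96 ± 0.19), of the channel for entry into the endoplasmic reticulum. Against LZ, 6 of 12 tested targets were higher in prePC cells and none was lower, with a median of 0.58 against -0.13.
Of 14 factors of the B cell programme, 6 were tested and 5 were higher in prePC cells than in PC, with a median of 2.08. They include Ebf1 (3.34 ± 0.31) and Irf8 (2.71 ± 0.34), both B lineage factors, Id3 (3.0 ± 0.39), an inhibitor of E proteins, and Spi1 (1.45 ± 0.25), which encodes PU.1. Against LZ, 8 of 13 were lower in prePC cells. Of 7 genes known to be repressed by Blimp-1, 2 could be tested against PC and both were higher in prePC, Myc by 1.79 ± 0.37 and Id3 as given, while 5 of 7 were lower in prePC cells than in LZ. Ciita, Pax5, Bcl6, Spib and Id3 stand in this list and among the 14 B cell factors, so the counts of both lists share genes.
Of 16 other regulators linked to PC, 10 were tested, 4 higher and 3 lower in prePC. Pou2f2 (1.92 ± 0.26) and Ikzf1 (1.32 ± 0.28) were higher, and Ell2 (-2.51 ± 0.35), an elongation factor known for secreted immunoglobulin mRNA, and Sub1 (-1.55 ± 0.26) were lower. Of 14 genes around the stress sensors, 3 were tested and 2 were lower, Creb3 (-1.11 ± 0.28), a relative of Creb3l2, and Atf6b (-1.07 ± 0.25), with Rtcb, the ligase that joins Xbp1 mRNA, at 0.73 ± 0.27 (adjusted p = 0.060). Rab3d and Rab26, known targets of Bhlha15, passed the filter in none of these fits. Library totals shift the median of all genes in prePC against PC from 0.04 to 0.34 and the share of calls that are higher in prePC from 47.8% to 70.8%.

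The sort gives a comparison in which transcripts did not define the groups. In the PC fraction of the 6 mice, the lowest, median and highest Prdm1 levels were 23.3, 29.3 and 38.8 CPM, and in the non-PC fraction 0.65, 0.87 and 2.31 CPM. Irf4 ranged from 46.2 to 163 CPM (median 89.8) against 3.34 to 6.53 (4.94), and Xbp1 from 414 to 1427 CPM (1075) against 104 to 123 (109). Neither gene overlapped between fractions.
Bhlha15 ranged from 8.66 to 37.8 CPM (median 17.2) against 0 to 0.38 (0.16), and Creb3l2 from 24.6 to 81.4 CPM (47.1) against 0.28 to 0.85 (0.48). Of 9313 genes 36.4% were called, and all 5 genes were called, higher in 6 of 6 mice, by 7.07 ± 0.20 for Creb3l2, 6.98 ± 0.41 for Bhlha15, 5.14 ± 0.28 for Prdm1, 4.63 ± 0.25 for Irf4 and 3.49 ± 0.30 for Xbp1 (adjusted p from 3.78e-07 to 0.000127, edgeR). Of all calls, 52.5% were higher in the PC fraction, and 17.9% with library totals. The spread of Xbp1 in the PC fraction moved with its make-up. In the order day 10 mice 1 and 2, day 16 mice 1 and 2, and day 22 mice 1 and 2, cells named PC were 90%, 76.2%, 19.3%, 26.7%, 78.8% and 28.6% of the PC well, and Xbp1 stood at 1268, 1427, 414, 623, 1419 and 882 CPM in it. The 13 tested targets of Xbp1 were all higher in the PC fraction, and 12 of 13 factors of the B cell programme were lower.

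A total of 8 cells named PC came from the non-PC well. Pooled, they held 693 CPM of Xbp1 (583 to 816, counting error only) against 1588 in the 234 of the PC well, 24.4 against 71.1 CPM of Creb3l2, 151 against 140 of Irf4 and 39.0 against 41.2 of Prdm1. Conversely, 155 germinal centre cells of the PC well, in the 5 mice with at least 3, were compared with 5152 of the non-PC well. In the order day 10 mouse 2, day 16 mice 1 and 2, and day 22 mice 1 and 2, Irf4 stood at 2.96, 10.1, 4.64, 22.1 and 28.4 CPM in the PC well and at 4.45, 2.96, 3.48, 4.12 and 5.07 in the other. It was higher in 4 of 5 mice and the wells overlapped. The log2 difference was 1.41 ± 0.49 (adjusted p = 0.0356, 19.5% of 8993 genes called), and it lost its call without mouse 1 of day 16 (1.28, 0.095), mouse 1 of day 22 (1.3, 0.096) or mouse 2 of day 22 (0.95, 0.32). The make-up of the 2 sets differed, as LZtoDZ, the germinal centre state highest in Irf4, supplied 43 of the 156 such cells loaded with the PC, against 189 of 5652 elsewhere. Within LZtoDZ the pooled Irf4 level was 13.7 CPM in the PC well (13 UMIs) and 12.0 in the other, within LZ it was 11.3 CPM (6 UMIs, 4.15 to 24.6) and 4.64, and within DZ it was 0 UMIs and 2.26 CPM. State make-up and well were not separated in the test. Xbp1 differed by -0.02 ± 0.13 (interval -0.29 to 0.24). Of abundant PC transcripts in the same cells, Jchain stood at 1092 and 1234 CPM in the PC and non-PC wells (adjusted p = 0.13), Mzb1 at 885 and 992 (0.082), and Hsp90b1, a chaperone, at 400 and 203 and was called.

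Cycling PC, those called S or G2M in the cell table, held less Xbp1 than PC called G1. The 4 mice with enough cells of both kinds gave 109 cells each way. In the order day 10 mice 1 and 2, day 16 mouse 2 and day 22 mouse 1, Xbp1 stood at 1069, 1502, 1121 and 1508 CPM in cycling PC and at 1561, 1803, 1864 and 1517 CPM in G1 PC. It was lower in 4 of 4 mice and the groups did not overlap, although mouse 1 of day 22 differed little. Of 2804 genes 26.9% were called, and of the 5 genes Xbp1 was the 1 called, by -0.81 ± 0.17 (adjusted p = 0.0138, edgeR).

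**Figure D3:**
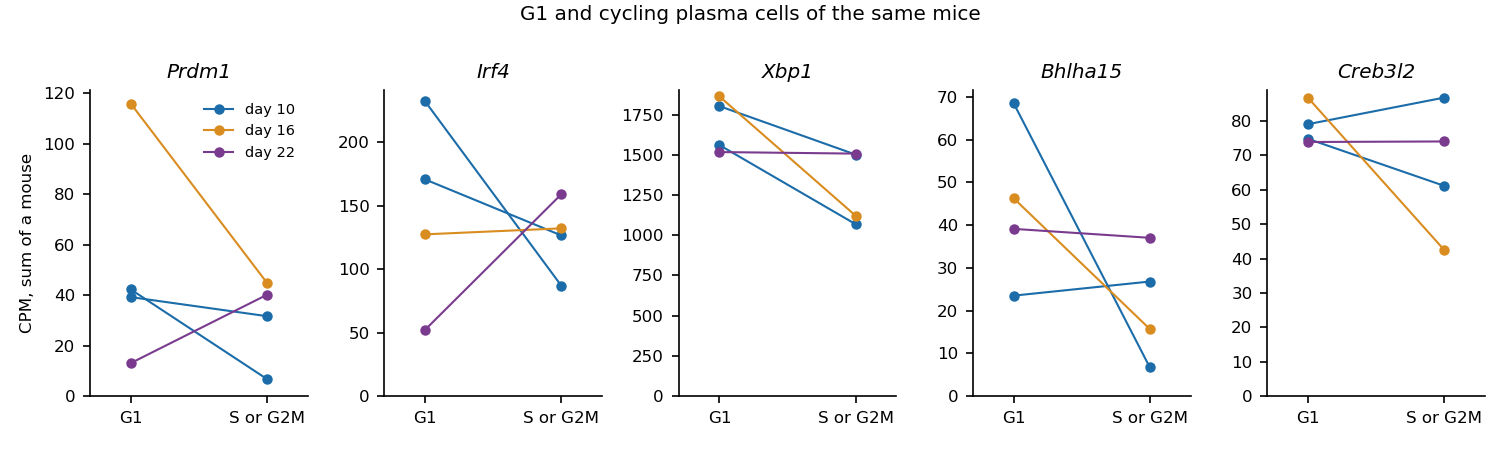
Level of each gene (CPM, vertical axis, a scale of its own for each gene) in G1 and cycling PC of 4 mice, with a line for each mouse coloured by day. All 4 lines fall for Xbp1, 1 of them from 1517 to 1508, and for each other gene at least 1 line rises.

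Prdm1 stood at 6.68, 31.6, 44.8 and 40.1 CPM in cycling PC and at 42.2, 39.2, 116 and 13.0 in G1 PC, and Irf4 at 86.8, 126, 132 and 159 against 232, 171, 127 and 52.2. Bhlha15 stood at 6.68, 26.8, 15.7 and 37.0 CPM against 68.5, 23.5, 46.3 and 39.1, and Creb3l2 at 86.8, 61.2, 42.5 and 74.1 against 79.1, 74.8, 86.8 and 73.9. All 4 overlapped between phases and none was called. Their differences were -0.90 for Prdm1 (interval -1.73 to -0.08, adjusted p = 0.15), -0.54 for Irf4 (-1.19 to 0.12, 0.27), -0.88 for Bhlha15 (-1.70 to -0.06, 0.16) and -0.71 for Creb3l2 (-1.18 to -0.24, 0.068). These intervals take the normal quantile and are too narrow for 4 mice. Before adjustment, p was 0.068 for Prdm1 and 0.073 for Bhlha15 (edgeR), though their intervals leave out 0.
The immunoglobulin share moved with the phase, from 10.5% to 20.1% of UMIs in cycling PC and from 27.1% to 35.5% in G1 PC, and with library totals in place of TMM the Xbp1 difference was -0.44 with an adjusted p of 0.13. That change shifts the median of all genes from 0.00 to 0.38 and the share of calls higher in cycling PC from 54.1% to 85.9%. The Xbp1 call was also lost on thinned cells (-0.56, adjusted p = 0.12) and without mouse 2 of day 16 (-0.68, 0.055).
Of 13 tested targets of Xbp1, 10 were lower in cycling PC and none was higher (26.9% of all genes called), with a median of -0.97. Herpud1 (-1.89 ± 0.18), Dnajb9 (-1.46 ± 0.19), Edem1 (-1.11 ± 0.11) and Dnajc3 (-1.09 ± 0.13) had the lowest p, all of the endoplasmic reticulum or its quality control. The others were Pdia4 (-1.17 ± 0.18), Hspa5 (-1.05 ± 0.17), Sec24d (-0.97 ± 0.28), Sdf2l1 (-0.90 ± 0.14), Ssr3 (-0.68 ± 0.13) and Sec61b (-0.66 ± 0.13). Of 8 tested other regulators 3 were lower, Ikzf3 (-0.81 ± 0.21), Atf4 (-0.72 ± 0.13) and Pou2af1 (-0.48 ± 0.14). Of 4 tested B cell factors 2 were lower, Mef2b (-1.99 ± 0.39) and Mef2c (-0.37 ± 0.11), and the mean CPM of Mef2c was higher in cycling PC (292 against 278), so its direction depends on the scaling. None of 4 stress sensor genes was called. The share of PC with a Prdm1 UMI was 51.7% in cycling and 36.1% in G1 PC, and 9.24% and 20.7% once cells were thinned to 4727 UMIs, the reverse order.

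Between days, none of the 5 genes was called in PC, where 0.0247% of 4042 genes were (1 gene, against 117 at an unadjusted p under 0.05 and 12 called by DESeq2). With 2 mice a day, the widest gap was that of Prdm1, 1.06 ± 0.45 higher at day 16 than at day 10 (interval 0.18 to 1.93, unadjusted p = 0.054, adjusted p = 0.9999, edgeR). That interval takes the normal quantile and is too narrow for so few mice. Both day 16 mice lay above both day 10 mice in the levels given for PC. The intervals of day 22 minus day 10 were -0.41 to 1.35 for Prdm1, -1.05 to 0.11 for Irf4, -0.44 to 0.76 for Xbp1, -0.63 to 1.02 for Bhlha15 and -0.65 to 0.72 for Creb3l2. They surround the estimates and are not limits of detection, so the lack of a call does not show that the levels were equal. In LZ, Xbp1 differed by -0.28 ± 0.07 between days 16 and 10 (0.4% of genes called, adjusted p = 0.21, edgeR) and Irf4 by -0.83 ± 0.30 (0.40). Over the 3 days, 1.07% of genes were called in LZ and 0.334% in DZ, and Xbp1 and Irf4 were called in neither state.

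In single cells, the 5 genes were found together in PC far more than elsewhere. A UMI was seen in 100% of PC for Xbp1, 68.2% for Irf4, 65.7% for Creb3l2, 43.8% for Prdm1 and 40.5% for Bhlha15, at a median of 18722.5 UMIs per cell. In DZ, where PC factors should be low, the shares were 59.2%, 2.31%, 0.34%, 0.76% and 0 (0 of 2382 cells, which allows up to 0.126% of cells with a UMI at this depth, not of cells expressing the gene) at a median of 9310 UMIs. Thinned to 4727 UMIs a cell, which left out 662 of the 6619 cells, PC had 99.2%, 38.3%, 29.2%, 15% and 14.6%. The same shares in prePC cells were 76.6%, 17.0%, 8.51%, 17.0% and 2.13%, at a median of 15290 UMIs, and 54.5%, 9.09%, 4.55%, 6.82% and 0 after thinning. In LZtoDZ, Irf4 was seen in 22.4% of cells and in 3.51% after thinning, against 3.69% and 1.70% in LZ.

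**Figure D4:**
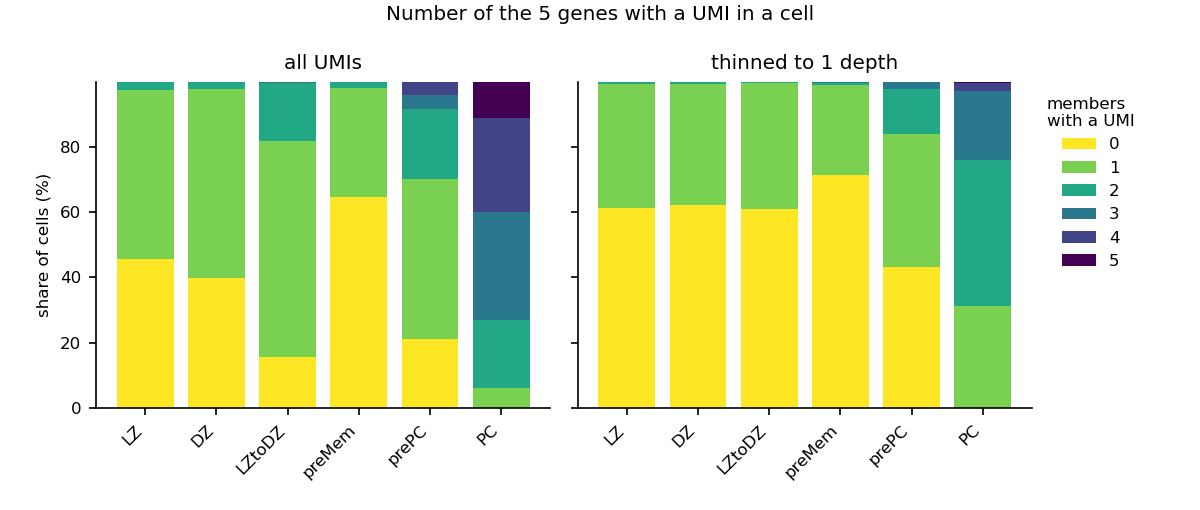
Percent of cells of each state (vertical axis, stacked bars) by the number of the 5 genes with a UMI (colour), with all UMIs at left and cells thinned to 4727 UMIs at right. PC are filled by 2 or more genes (93.8%, 68.8% thinned) and LZ by 0 or 1.

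No PC lacked all 5 genes: 15 cells had 1 of them, 50 had 2, 80 had 3, 70 had 4, and 27 (11.2%) had all 5. The mean was 3.18 genes a cell in PC and 1.21 in prePC cells, against 1.03 in LZtoDZ, 0.63 in DZ, 0.57 in LZ and 0.38 in preMem. After thinning it was 1.96 in PC, 0.75 in prePC and between 0.30 and 0.39 in the others, so LZtoDZ no longer stood out. At least 2 of the genes were seen in 93.8% of PC (68.8% thinned), 29.8% of prePC cells (15.9%) and 2.72% of LZ cells (0.80%).
The most common sets in PC were Irf4, Xbp1 and Creb3l2 in 33 cells, these with Bhlha15 in 30, all 5 in 27, and Irf4, Xbp1, Creb3l2 and Prdm1 in 23. Irf4 with Xbp1 made up 20 cells and Xbp1 alone 15. In prePC cells Xbp1 alone was the most common set, in 22 of 47, followed by none of the genes in 10 and by Prdm1 with Xbp1 in 5.

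Within PC, where Xbp1 was in every cell, the other 4 genes make 6 pairs. Bhlha15 and Creb3l2 shared 77 cells where the product of their shares gives 64.4, an odds ratio of 2.77, and the odds ratio was over 1 in each of the 4 mice that allowed one (1.38 to 3.28). Irf4 and Creb3l2 shared 113 cells against 108 (1.46), Irf4 and Bhlha15 71 against 66.8 (1.40), Prdm1 and Irf4 75 against 72.3 (1.24), Prdm1 and Bhlha15 46 against 42.9 (1.24), and Prdm1 and Creb3l2 70 against 69.6 (1.03). The cells differ in depth, and after thinning 1 of 6 odds ratios was over 1, with Bhlha15 and Creb3l2 at 0.97 and Irf4 and Creb3l2 at 1.42. In prePC cells Prdm1 and Irf4 shared 3 cells where the product gives 1.36. These counts are descriptions, since cells share mice and wells.

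**Figure D5:**
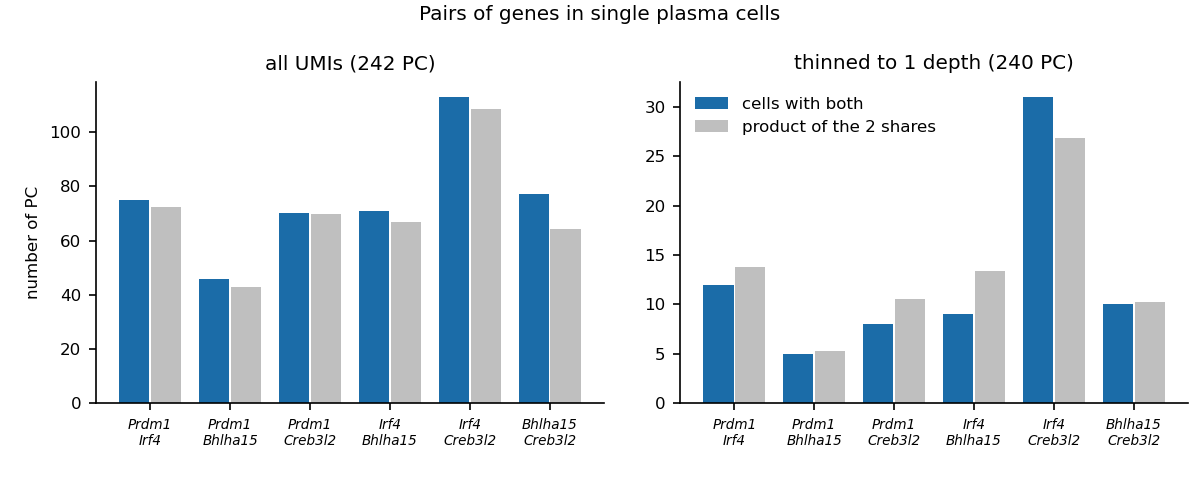
Number of PC (vertical axis) with a UMI of both genes of each pair (blue) beside the number that the product of the 2 shares gives (grey), for 242 PC with all UMIs at left and 240 thinned PC at right. Blue exceeds grey in all 6 pairs at left and in 1 pair, Irf4 with Creb3l2, at right.

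Over the 31 sums of a mouse and state with at least 10 cells, the genes whose log2(CPM + 1) ran most alike to each member were listed by Pearson's r, as a description in which the sums share libraries and the split of PC from the rest dominates. Xbp1 ran closest to Sec61g (0.98), Ssr2, Sec61b, Sec11c and Selm, most of them parts of the endoplasmic reticulum's entry and trimming machinery. Bhlha15 ran closest to Cd28 (0.99), Dnajc3, Cnpy2, Hsp90b1 and Ssr3, and Creb3l2 to Tnfrsf17 (0.98), which encodes the survival receptor BCMA, Cd28, Sec11c, Ssr4 and Ppib. Irf4 ran closest to Hsp90b1 (0.95), Mtdh, Hspa5, Manf and Ddost. Prdm1 ran closest to Pik3r5 (0.93), Cyb5a, Erp29, Ftl1 and Gpr55. Among the members, r was 0.98 between Xbp1 and Bhlha15 and 0.76 between Prdm1 and Irf4.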

How the data were processed

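Draining lymph node cells of 6 mice were read from a gene list, a cell table and a matrix. The deposited matrix holds raw UMI counts, and the authors made it with Cell Ranger and Seurat on mm10/GRCm38, per the submitters' processing notes, with versions not given in the sources used here. Module scores (unit: score), a phase call, states, days and mice stand in the deposited cell table, whose totals equalled the sums of counts in all 6619 cells. No cells were removed here, and the handling of doublets and the rule of the states are not given. There were 0 columns of other series.

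Counts were summed per mouse and state, fraction or phase (at least 3 cells) and tested with edgeR 4.0.16 in R 4.3.3 (quasi-likelihood F test, TMM, filterByExpr, the mouse as a block, adjustment by Benjamini-Hochberg over all genes). Populations were paired by the mouse given for each cell in the cell table. Overlap of mice between groups was read for the members only, in every comparison, and its share over all genes was not counted. DESeq2 1.42.0 was an alternative. The SE is the log2 difference over the square root of F, and intervals are at 95%. The steps were tested on simulated data. The members and lists were chosen with earlier results of these data known. List genes named are up to 4 per list with the lowest p in prePC against PC, and all those called between phases. Library totals, and leaving out mice or the filter in the prePC comparisons with DZ, LZtoDZ and preMem and between wells, were added after seeing the data. Replicates are mice, 2 a day, and intervals of pooled counts and shares cover counting error only. Gene models are from GENCODE M21 and promoters from RefSeq.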

Additional observations from a re-analysis of the deposited data

Results flagged for a closer look

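In 4 of the 56 groups of 4 to 10 mice examined, 1 mouse stood far from the others by the gap test of Dixon, which chance does in about 1 of 20 groups, and each of the 4 rests on 1 to 3 UMIs. Creb3l2 in germinal centre cells of the PC well was at 2.32 CPM in mouse 2 of day 16 (2 UMIs) and at 0 in the nearest other mouse. Prdm1 in the same cells was at 5.06 CPM in mouse 1 of day 16 (2 UMIs), with the next mouse at 1.16. In preMem cells Creb3l2 was at 5.45 CPM in mouse 2 of day 22 (1 UMI). Bhlha15 in prePC cells was at 4.84 CPM in mouse 2 of day 10 (3 UMIs, all in 1 cell).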

How the results depend on the processing

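Over 51 results on single members, 293 of 309 alternatives kept the side of the threshold, 12 lost the call and 3 gained one. Where either fit was called, 1 reversed in sign, that of Prdm1 in prePC against PC, which was 0.55 within the PC well. The 293 include changes of sign between fits that were both uncalled. For Xbp1 in LZtoDZ against DZ, library totals took 0.04 to -0.03. The mouse as a block stands for a real pairing, and fits with no replicate block gave 4 members in prePC against PC (Prdm1 -1.20, adjusted p = 0.037, edgeR), 1 against LZ, 1 between phases and 5 between fractions, with 1020, 1006, 808 and 4324 genes, and changed no call of a member.

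Of the 4 members called in prePC against PC, Xbp1 was the 1 called within the PC well, where Irf4 and Prdm1 were tested and Creb3l2 was not, and the 1 called on thinned cells, where no other member passed the filter; genes called went from 892 to 2269 in 1 fit over 6 states, 189 in the PC well, 388 on thinned cells, 1490 with no filter and 472 to 931 with mice left out. Against LZ the member called became 5 in 1 fit over 6 states, 2 with at least 5 cells a sum, 0 on thinned cells, 5 with no filter and 1 to 2 with mice left out, and genes went from 689 to 1304 in 1 fit, 447 with DESeq2, 275 on thinned cells and 332 to 768 with mice left out. With no filter, 5 members were called against DZ (1233 of 13835 genes), 3 against LZtoDZ (1223 of 12478) and 2 against preMem (776 of 12255). With mice left out, genes ranged from 447 to 993 and members from 1 to 2 against DZ, and genes from 361 to 728 against LZtoDZ and from 131 to 735 against preMem. The lowest of these 5 ranges of genes came without mouse 2 of day 10, which holds 28 of the 47 prePC cells.

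Between phases, the 1 member called became 2 in the PC well, 2 with no immunoglobulin genes, 0 on thinned cells, 0 with library totals and 0 to 2 with mice left out; genes went from 754 to 175 on thinned cells, 1190 with no filter and 436 to 736 with mice left out. Between fractions, thinning left 1492 of 3389 genes. Days in PC gave 12 genes with DESeq2, 182 with no filter, 0 with no immunoglobulin genes and 0 to 34 with mice left out. With library totals, LZtoDZ against LZ had 1 member called, and the germinal centre cells of both wells 0 to 1 with mice left out. Library totals also moved the share of calls that are higher from 45.9% to 16.5% in PC against DZ, from 50.2% to 19.1% in PC against LZtoDZ, from 48.5% to 31.9% in PC against preMem, from 62.1% to 39.2% in prePC against LZtoDZ, from 44.6% to 55.8% against preMem and from 46.4% to 35.3% in preMem against LZ. Thinning moved 20 of 30 shares of cells, the mean of members per PC to 1.96 and the pairs with an odds ratio over 1 from 6 to 1. The cause of these changes was not tested. Bhlha15 and Creb3l2 rest on 12 UMIs or fewer in each state outside PC. The totals over all genes were 28139236 UMIs in LZ, 26167948 in DZ and 929716 in prePC cells, against 4860650 in PC.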
